A study of Zea mays with 10 samples.

Results

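The 5 ARF3 genes of maize, arf3a to arf3e, encode AUXIN RESPONSE FACTOR3 transcription factors and were taken by their gene identifiers from a table that lists one transcript level per genotype for 109874 genes. They are the members of the gene family that the study treats as targets of tasiR-ARFs, a class of trans-acting short interfering RNA (ta-siRNA) and were chosen with their values in these data already known. Shoot apices of lbl1 (leafbladeless1) seedlings, carrying the lbl1-rgd1 allele, were set against apices of wild-type (WT) seedlings. The labels give the inbred line B73 for the WT samples and describe families segregating lbl1-rgd1 after its introgression into B73. Whether the WT plants were B73 itself or non-mutant plants of these families is not clear from the sources used here, nor how much donor chromosome remained around the allele. The plants were 2 weeks old, and the dissected tissue was the meristem together with at most 5 young leaves. Of the 10 samples of the series, 2 of lbl1 and 2 of WT were sequenced as mRNA and are described here, and 3 of lbl1 and 3 of WT were sequenced as small RNA and were not analysed here. The 2 mRNA samples of a genotype were combined by the authors into 1 RPKM value (a read count scaled for transcript length and for the number of mapped reads) before deposition. The values below therefore carry no SD, no test and no p-value, the number of reads behind them is unknown, and each difference between the genotypes is a description of these 2 pools. In whole apices, fewer cells of a type and less RNA per cell cannot be told apart.

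ta-siRNAs are made in steps. The microRNA miR390, loaded in an ARGONAUTE7 protein (RAGGED SEEDLING2, RGD2, in maize), cuts non-coding TAS3 precursor transcripts. LBL1, the maize SUPPRESSOR OF GENE SILENCING3 homolog, and RNA-DEPENDENT RNA POLYMERASE6 then convert the cut RNA to a double strand, and DICER-LIKE4 slices it into siRNAs of 21 nt in register with the cut. A subset of these, the tasiR-ARFs, pair with ARF3 transcripts and direct their cleavage. In the leaf primordium ARF3 proteins act as determinants of the abaxial (lower) side, and tasiR-ARFs keep their activity away from the adaxial (upper) side.

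The small RNAs that stand over the ARF3 genes are shown first, because one shared core runs through all of them. They are taken from the target table among the study's supplementary files, where a name gives the TAS3 precursor by its letter, then the phase position and the strand. Capitals mark the bases that are the same in all of the listed sequences when these are aligned from their shared UCUUGA start.
aD7(+): uUCUUGAcCUUGuAAGgCucu
aD8(+): uUCUUGAcCUUGuAAGgCcuc
bD5(+), cD5(+): UCUUGAcCUUGuAAGaCccaa
bD6(+), cD6(+): UCUUGAcCUUGcAAGaCcuuu
dD7(+): uUCUUGAcCUUGuAAGgCccu
eD6(+): uUCUUGAuCUUGcAAGaCuuu
gD6(+), iD5(+): uUCUUGAcCUUGcAAGaCuuu

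The 10 tasiR-ARF names in the target table came down to 7 distinct sequences from 7 of the TAS3 precursors. Over the 20 positions that all 7 share in this register, 14 were identical and 6 varied, and a pair of sequences differed at between 1 and 5 positions. Most of the variable positions lay toward the 3′ end, and the stretch from the shared start to the central CUUG varied at a single base, in eD6(+). In 5 of the sequences the small RNA began 1 base before the shared start, and in 2 it began on it. 3 of the sequences were common to a pair of precursors (tas3b with tas3c for 2 of them, and tas3g with tas3i).

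In lbl1 apices all 5 ARF3 genes had a higher RPKM than in WT apices, and for 4 of them the value was more than 2 times as high. Background for that count came from 24760 genes that reached 1 RPKM in lbl1 and in WT (the expressed genes below), of which 6.36% were at least 2-fold higher in lbl1 and 6.79% at least 2-fold lower. The median expressed gene had a ratio of lbl1 over WT of 0.933 (log2 of -0.10). Relative to it, the log2 ratios ran between 0.40 for arf3b and 1.71 for arf3d, the same 4 of 5 ARF3 genes were past 2-fold, and 7.52% of the expressed genes were at least 2-fold higher. RPKM is scaled for transcript length, and on that basis the 5 genes are set beside each other below. Only uniquely mapped reads were kept, and how many reads each ARF3 copy lost in this way is not known. The order and shares of the copies are uncertain to that extent.

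arf3d (GRMZM2G437460; chromosome 3, 210265410 to 210273272 in B73 RefGen_v2) had 138 RPKM in lbl1 and 45.2 RPKM in WT. Its ratio of 3.06 (log2 ratio of 1.61) was the largest of the family. It was also the only member past 3-fold, a mark that 2.61% of the expressed genes passed in that direction. arf3e (GRMZM5G874163; chromosome 8, 174214893 to 174221202) had 64.1 RPKM in lbl1 and 23.9 RPKM in WT, a ratio of 2.69 (log2 ratio of 1.43). arf3c (GRMZM2G056120; chromosome 3, 196568222 to 196574187) was the lowest member in both genotypes, with 38.2 RPKM in lbl1 and 14.9 RPKM in WT, a ratio of 2.56 (log2 ratio of 1.36). arf3a (GRMZM2G030710; chromosome 6, 164519768 to 164525033) had 119.9 RPKM in lbl1 and 56.5 RPKM in WT. Its ratio was 2.12 (log2 ratio of 1.09), so the member with the highest level in WT had the next-to-lowest ratio.

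arf3b (GRMZM2G441325; chromosome 6, 158647498 to 158653792) stood apart from the other members. It had 46.7 RPKM in lbl1 and 38.0 RPKM in WT, a ratio of 1.23 (log2 ratio of 0.30). It was under the 1.5-fold mark that 13.5% of all expressed genes passed upward. With no spread between samples in the table, the values do not say whether arf3b differed between the genotypes, nor whether its ratio differed from that of its relatives.

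**Figure D1:**
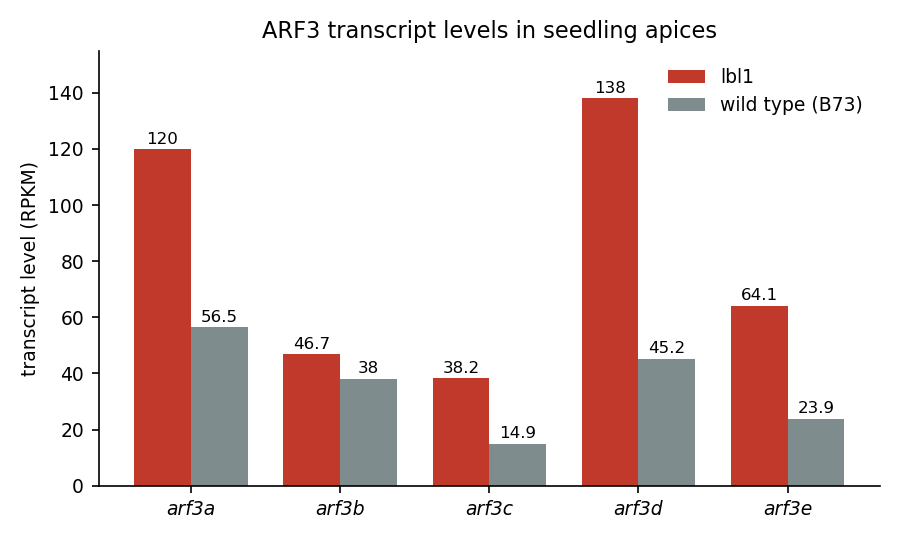
Transcript level of each ARF3 gene (RPKM, linear axis from 0) in lbl1 (red) and WT (grey) apices, each bar being the authors' single value for 2 pooled samples, so no error bar can be drawn. The lbl1 bar is the taller for each gene, from 138 against 45.2 RPKM for arf3d to 46.7 against 38.0 RPKM for arf3b.

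The order of the members was not the same in the 2 genotypes. In lbl1 it ran arf3d, arf3a, arf3e, arf3b, arf3c from the highest to the lowest, and in WT arf3a, arf3d, arf3b, arf3e, arf3c. arf3d stood at 1.15 times the level of arf3a in lbl1 and at 0.7999 times in WT. arf3b stood at 0.729 times the level of arf3e in lbl1 and at 1.59 times in WT. The distance from the lowest to the highest member was much alike, 3.61-fold in lbl1 and 3.79-fold in WT. Whether neighbours in either order differed beyond the spread of the samples could not be tested.

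Summed over the family, ARF3 transcripts came to 406.9 RPKM in lbl1 and 178.4 RPKM in WT, a ratio of 2.28, or 2.45 relative to the median gene. The sum was 228.5 RPKM higher in lbl1, and this difference was unevenly divided. arf3d accounted for 40.6% of it, arf3a for 27.7%, arf3e for 17.6%, arf3c for 10.2% and arf3b for 3.83%. Together arf3d and arf3a made up 68.4% of the difference.

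As shares of the family sum, arf3d held 33.9% in lbl1 and 25.3% in WT, the largest difference in share upward at 8.60 percentage points. arf3b held 11.5% in lbl1 and 21.3% in WT, the largest downward at -9.80 percentage points. The other shares lay closer together. arf3a held 29.5% in lbl1 and 31.7% in WT, a difference of -2.20 percentage points, even though its own level was 2.12 times as high in lbl1. arf3e held 15.8% in lbl1 and 13.4% in WT, and arf3c held 9.39% in lbl1 and 8.36% in WT. In both genotypes arf3a and arf3d supplied most of the family's transcript, 63.4% in lbl1 and 56.97% in WT.

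**Figure D2:**
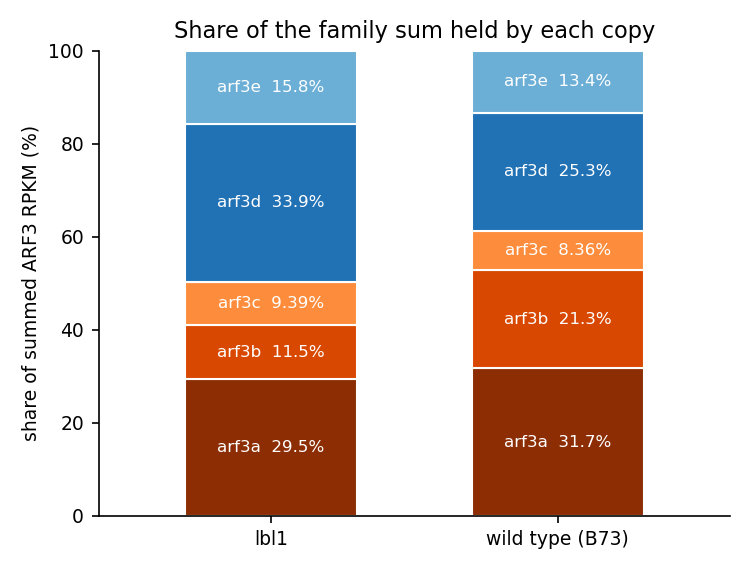
Share of the summed ARF3 RPKM (percent) held by each of the 5 genes in lbl1 (left) and WT (right). The arf3d segment takes 33.9% in lbl1 against 25.3% in WT, and the arf3b segment 11.5% against 21.3%.

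Set among all genes at 1 RPKM or more (27294 in lbl1, 27395 in WT), each ARF3 gene stood at a higher rank in lbl1. arf3d ranked 1267th from the top (top 4.64%) in lbl1 and 4684th (top 17.1%) in WT. arf3a ranked 1489th (top 5.46%) in lbl1 and 3570th (top 13.0%) in WT. The largest difference in rank was that of arf3c, which lay at 5560th place (top 20.4%) in lbl1 and 12478th (top 45.5%) in WT. arf3e lay at 3107th place (top 11.4%) in lbl1 and 8887th (top 32.4%) in WT. arf3b lay at 4472nd place (top 16.4%) in lbl1 and 5680th (top 20.7%) in WT. In WT apices, therefore, arf3c sat close to the middle of the expressed genes, whereas the other 4 members were in the upper part.

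By the size of the ratio itself, arf3d was 611th of the 24760 expressed genes, arf3e 827th, arf3c 919th, arf3a 1376th and arf3b 5891st. By the difference in RPKM, arf3d was 299th, arf3a 470th, arf3e 762nd, arf3c 1273rd and arf3b 2971st. Many genes outside the 5 members thus had a larger ratio than any ARF3 gene. Ratios spread more widely among weakly expressed genes, so each member was also set beside other genes of like level, those whose geometric mean of the 2 genotypes lay within 2-fold of its own. A ratio at or above that of arf3d was found in 72 of 4189 such genes (1.72%), at or above that of arf3e in 140 of 7676 (1.82%), and at or above that of arf3c in 222 of 9276 (2.39%). For arf3a the count was 153 of 4032 (3.79%). arf3b was matched or passed by 1583 of 7312 genes (21.6%), about as many as its place among all genes (top 23.8%) gives. Over the whole range of levels that the 5 members span (6338 genes), 3.93% were at least 2-fold higher in lbl1 and 3.11% at least 2-fold lower, so the share past 2-fold was smaller there than among expressed genes in general.

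**Figure D3:**
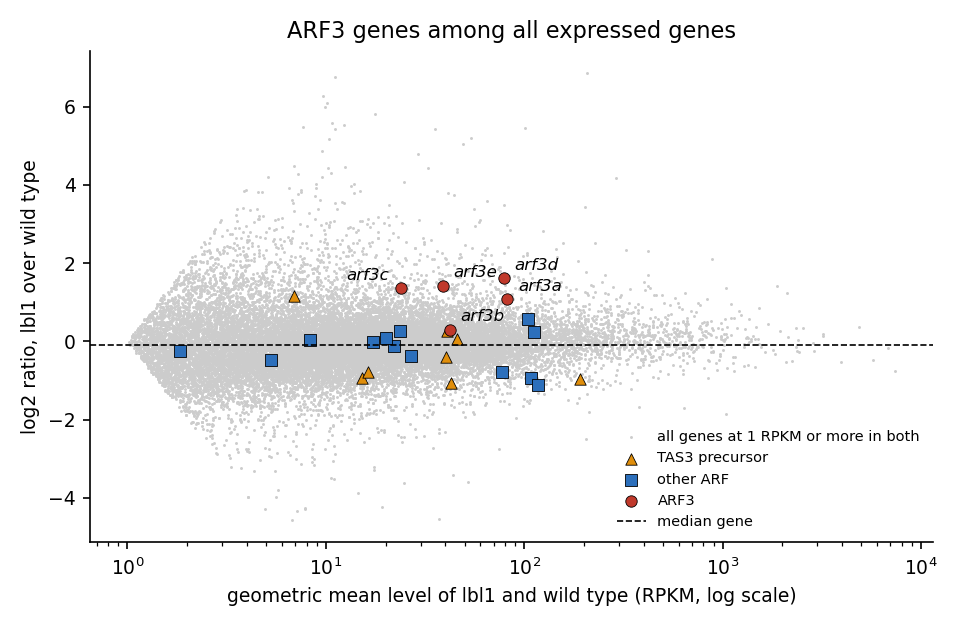
Log2 ratio of lbl1 over WT against the geometric mean of the 2 RPKM values (log axis) for the 24760 genes at 1 RPKM or more in both genotypes (grey dots), with ARF3 genes as red circles, other ARF genes as blue squares and TAS3 precursors as orange triangles. The dashed line is the median gene at -0.10, and 4 ARF3 genes lie above a log2 ratio of 1 while arf3b lies at 0.30.

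The other auxin response factors that could be found by name had ratios on both sides of 1. ARF proteins bind auxin response elements in promoters and activate or repress the genes there. Besides the 5 ARF3 genes, 17 genes carried an ARF name. This list is likely partial. Only 6439 of the 109874 identifiers carry a name in a later annotation, and arf3a and arf3e carry no ARF name themselves. Of the 17, 13 were expressed in both genotypes by the 1 RPKM limit, with 4 below it. None of the 13 was at least 2-fold higher in lbl1 and 1 was at least 2-fold lower, counts near the 6.36% and 6.79% of all expressed genes, with 5 ratios above 1 and 8 below. Their median log2 ratio was -0.11, beside -0.10 for all expressed genes and 1.36 for the 5 ARF3 genes, and their ratios ran between 0.457 and 1.496, so the lowest ARF3 ratio (arf3b, 1.23) lay within their range and the other 4 above it.

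Summed, those 17 genes came to 590.1 RPKM in lbl1 and 744.0 RPKM in WT, a ratio of 0.793. The 22 listed ARF genes together came to 997.0 RPKM in lbl1 and 922.5 RPKM in WT. ARF3 transcripts consequently made up 40.8% of the total of these 22 genes in lbl1 and 19.3% in WT. ARF genes without a name are missing from that total and from the order below. Ordered by level among the 22, arf3d was 1st in lbl1 and 7th in WT, and arf3a was 4th in lbl1 and 6th in WT. arf3e was 7th in lbl1 and 10th in WT, arf3c was 10th in lbl1 and 15th in WT, and arf3b was 9th in lbl1 and 8th in WT. arf3b was therefore the single ARF3 gene that stood at a lower place among the 22 listed genes in lbl1.

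Among the other ARF genes found by name, the 3 with the highest level in WT were ARF13 (GRMZM2G378580), ARF10 (GRMZM2G338259) and ARF18 (GRMZM2G035405). ARF13 had 79.6 RPKM in lbl1 and 174 RPKM in WT, the lowest ratio of the group at 0.457. ARF10 had 78.5 RPKM in lbl1 and 150.1 RPKM in WT, a ratio of 0.523. ARF18 had 121 RPKM in lbl1 and 102 RPKM in WT, a ratio of 1.19. The level of arf3d in lbl1 was above those of all 3 in that genotype, and in WT it was below them. The other ARF gene with the highest ratio was GRMZM2G078274, with 128 RPKM in lbl1 and 85.6 RPKM in WT (1.496). A later annotation gives it the name ARF3, but the study does not count it in the ARF3 family. ARF4 (GRMZM2G034840) had 25.8 RPKM in lbl1 and 21.6 RPKM in WT, a ratio of 1.19, and ARF28 (GRMZM2G006042), for which the authors' software gave no valid test, had 58.9 RPKM in lbl1 and 101.7 RPKM in WT, a ratio of 0.579.

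Upstream of the ARF3 genes, the TAS3 precursor transcripts were mostly lower in lbl1. Over the 9 precursors the sum was 327.5 RPKM in lbl1 and 504.9 RPKM in WT, a ratio of 0.649. Of the 8 at or above 1 RPKM in lbl1 and WT alike, 5 had a ratio below 1 and 3 a ratio above it, with a median log2 ratio of -0.59. Of these 8, 1 was at least 2-fold higher and 1 at least 2-fold lower, beside 6.36% and 6.79% of all expressed genes. In lbl1 the ARF3 sum was 1.24 times the precursor sum, and in WT 0.353 times. These precursor values are steady-state RNA and not the amount of tasiR-ARF made from them, which the mRNA libraries do not measure.

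Grouped by the tasiR-ARF that they encode, the precursors of the tasiR-ARFs with the b and c letters (tas3b and tas3c) had a summed level of 172 RPKM in lbl1 and 314 RPKM in WT. tas3b (GRMZM2G020468), the most abundant precursor, had 137 RPKM in lbl1 and 267.5 RPKM in WT, a ratio of 0.511. The pair tas3g and tas3i, which share the sequence uUCUUGAcCUUGcAAGaCuuu, summed to 40.5 RPKM in lbl1 and 82.3 RPKM in WT. tas3i was the precursor past 2-fold downward, with 29.5 RPKM in lbl1 and 61.2 RPKM in WT (0.482). The precursor tas3e, whose tasiR-ARF carries the variable base within the 5′ stretch, had 12.5 RPKM in lbl1 and 21.5 RPKM in WT. tas3a and tas3d, whose tasiR-ARFs carry g where the rest carry a near the 3′ end, had values closer together between the genotypes. tas3a had 46.7 RPKM in lbl1 and 44.6 RPKM in WT, and tas3d had 44.7 RPKM in lbl1 and 37.4 RPKM in WT. Of the precursors with no tasiR-ARF in the target table, tas3f had 10.3 RPKM in lbl1 and 4.66 RPKM in WT, a ratio of 2.22, and tas3h was below 1 RPKM in both, with 0.797 RPKM in lbl1 and 0.584 RPKM in WT. The study gives tas3f a potential tasiR-ARF, which it did not detect in its small RNA libraries, and gives tas3h none.

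The genes of the ta-siRNA machinery were expressed in both genotypes. lbl1 itself (GRMZM2G020187), the mutated gene, had 226 RPKM in lbl1 apices and 301 RPKM in WT apices, a ratio of 0.750. The labels do not say what the lbl1-rgd1 allele does to its own transcript, so this level does not check the genotype of the samples. rgd2 (GRMZM5G892991), the ARGONAUTE7 gene, had 3.53 RPKM in lbl1 and 9.10 RPKM in WT, a ratio of 0.388. Of the 6 machinery identifiers, rgd2 alone was past 2-fold, beside 6.79% of all expressed genes at least 2-fold lower. The RNA-DEPENDENT RNA POLYMERASE6 gene, rdr6, had 8.09 RPKM in lbl1 and 8.72 RPKM in WT. The highest of the 3 identifiers for dcl4 had 40.2 RPKM in lbl1 and 31.9 RPKM in WT. The others were lower in lbl1, with 3.91 against 5.31 RPKM in WT (GRMZM2G024466) and 1.67 against 2.01 RPKM (GRMZM2G050882). The ARF3 sum was 1.80 times the lbl1 transcript level in lbl1 apices and 0.592 times in WT apices. The study counts 5 TAS3 transcripts among its verified ta-siRNA targets. Outside these and the ARF3 family it lists 1 more, GRMZM2G018189, a relative of the Arabidopsis salt tolerance gene SLT1. It had 79.0 RPKM in lbl1 and 79.3 RPKM in WT, a ratio of 0.996, which is below those of all 5 ARF3 genes.

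ARF3 genes act beside other determinants of leaf polarity. Genes for the adaxial side include the HD-ZIP III factors rld1 and rld2. rld1 had 64.7 RPKM in lbl1 and 116.7 RPKM in WT, a ratio of 0.555, and rld2 had 49.1 RPKM in lbl1 and 67.6 RPKM in WT, a ratio of 0.726. KANADI genes, abaxial determinants like ARF3 in Arabidopsis, were low in these apices. Milkweed pod1 (mwp1), in WT the highest of the 3, had 3.84 RPKM in lbl1 and 6.97 RPKM in WT, a ratio of 0.551. kan1 (GRMZM2G056400) had 0.282 RPKM in lbl1, under the 1 RPKM limit, and 4.06 RPKM in WT, the lowest ratio of the 3 at 0.0694. kan3 had 1.02 RPKM in lbl1 and 1.64 RPKM in WT. Of the 8 YABBY genes, a family with a role in blade outgrowth, 1 was at least 2-fold higher in lbl1, beside 6.36% of all expressed genes, and the median log2 ratio was 0.05. That gene, YAB6 (GRMZM2G074124), had 22.3 RPKM in lbl1 and 6.91 RPKM in WT. RS2 (rough sheath2), a MYB factor that keeps meristem genes off in leaves, had 39.0 RPKM in lbl1 and 39.0 RPKM in WT. LBD6 (GRMZM2G118250), a LOB-domain factor also known as indeterminate gametophyte1, had 13.8 RPKM in lbl1 and 23.0 RPKM in WT, a ratio of 0.6002. The 3 KANADI and 2 HD-ZIP III genes had ratios below 1, as did the median expressed gene (0.933), while the 5 ARF3 genes had ratios above 1. For rld2 the authors' software gave no valid test, and it listed kan3 as not tested.

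**Figure D4:**
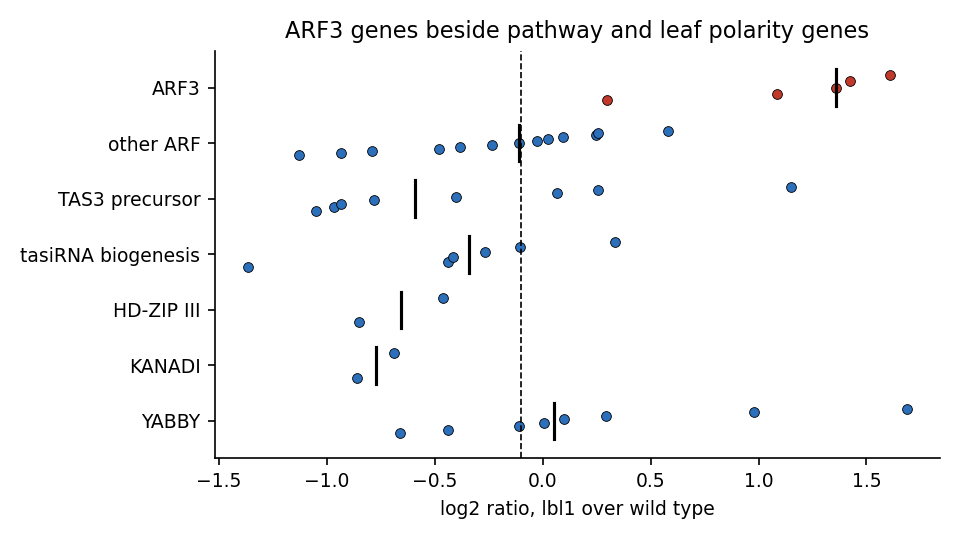
Log2 ratio of lbl1 over WT for each expressed gene (1 RPKM or more in lbl1 and in WT) in the ARF3 family (red) and in 6 other groups (blue), with the group median as a black bar and the median of all expressed genes as a dashed line. The ARF3 median lies at 1.36, against -0.11 for the other ARF genes and -0.59 for the TAS3 precursors.

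The make-up of the dissected tissue bears on these levels. KN-1 (knotted1), a homeobox gene of the shoot meristem, had 122.5 RPKM in lbl1 and 69.3 RPKM in WT, and the 14 apex marker genes summed to 382 RPKM in lbl1 and 277 RPKM in WT, with 11 of them at 1 RPKM or more in both. Of these 11, 9 had a ratio above 1 and 2 a ratio below it. At least 2-fold higher was 1 of the 11 (LG3, a ratio of 2.01), beside 6.36% of all expressed genes. The ratios below 1 were 0.785 for GRMZM2G370332 (knox6) and 0.833 for GRMZM2G433591 (knox7). WOX3A (narrow sheath1), a homeobox gene of the leaf margin domain, had 0.3798 RPKM in lbl1 and 2.67 RPKM in WT, a ratio of 0.142. The label of an apex sample was thus met by 11 of the 14 listed markers in both genotypes. Of the other 3, WOX3A was under 1 RPKM in lbl1 only. KNOX1 was under it in both (0.259 RPKM in lbl1 and 0.173 RPKM in WT), and KNOX10 was listed at 0 in both. The 6 markers of an expanded photosynthetic leaf summed to 87.9 RPKM in lbl1 and 12.8 RPKM in WT, with 3 of them at 1 RPKM or more in both and PEP1, which encodes the carbon-fixing enzyme of the C4 cycle, listed at 0 in both. Most of that sum in lbl1 came from GRMZM2G306345 (a Ppdk1 gene in the later annotation), with 62.2 RPKM in lbl1 and 0.441 RPKM in WT. Of the 3 leaf markers expressed in both, 2 were at least 2-fold higher in lbl1, beside 6.36% of all expressed genes. They were me3, with a ratio of 2.10, and PPDK1 (GRMZM2G097457), with a ratio of 4.67. A later annotation names GRMZM2G097457 PPDK2, so its place among the leaf markers rests on the older name. The third, ssu1 (Rubisco small subunit), had 4.17 RPKM in lbl1 and 3.84 RPKM in WT (1.09). RCA1 was under 1 RPKM in both, at 0.366 RPKM in lbl1 and 0.0524 RPKM in WT. Beside the ARF3 family ratio of 2.28, the ratio of the sums was 6.89 for the leaf markers and 1.38 for the apex markers. The leaf value rests mostly on GRMZM2G306345. The later annotation lists both C4ppdkZm1 and cyppdkZm1 as its names, so its place among the leaf markers is not certain from them. The part of tissue make-up in the ARF3 values was not tested.

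Because the lbl1-rgd1 allele was brought into B73 by crossing, the place of each ARF3 gene on its chromosome was examined as well. The arf3a and arf3b genes lie on chromosome 6 with lbl1, 147 Mb and 141 Mb away from it, and 5.87 Mb from each other. The arf3c and arf3d genes lie 13.7 Mb apart on chromosome 3, and arf3e is alone on chromosome 8. Within 1 Mb of the 5 genes, 274 other genes were expressed, of which 23 were at least 2-fold higher and 23 at least 2-fold lower, beside 6.36% and 6.79% of all expressed genes.

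Around arf3c, arf3d and arf3e the ARF3 gene stood near the top of its neighbourhood, with 1 neighbour at or above its ratio in each case, among 48 genes around arf3c, 35 around arf3d and 55 around arf3e. The median log2 ratio of the neighbours was -0.24 around arf3c, -0.11 around arf3d and -0.19 around arf3e. Around arf3a, 13 of 79 neighbours were at least 2-fold higher and 6 at least 2-fold lower (6.36% and 6.79% over all expressed genes), and 10 had a ratio at or above that of arf3a, although their median log2 ratio was -0.06. Around arf3b, 2 of 57 were at least 2-fold higher and 4 at least 2-fold lower, with a median of 0.01, and 15 were at or above arf3b. More neighbours past 2-fold upward were thus counted around arf3a than around the other 4 members together. Whether donor chromosome around arf3a takes part in its ratio was not tested.

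**Figure D5:**
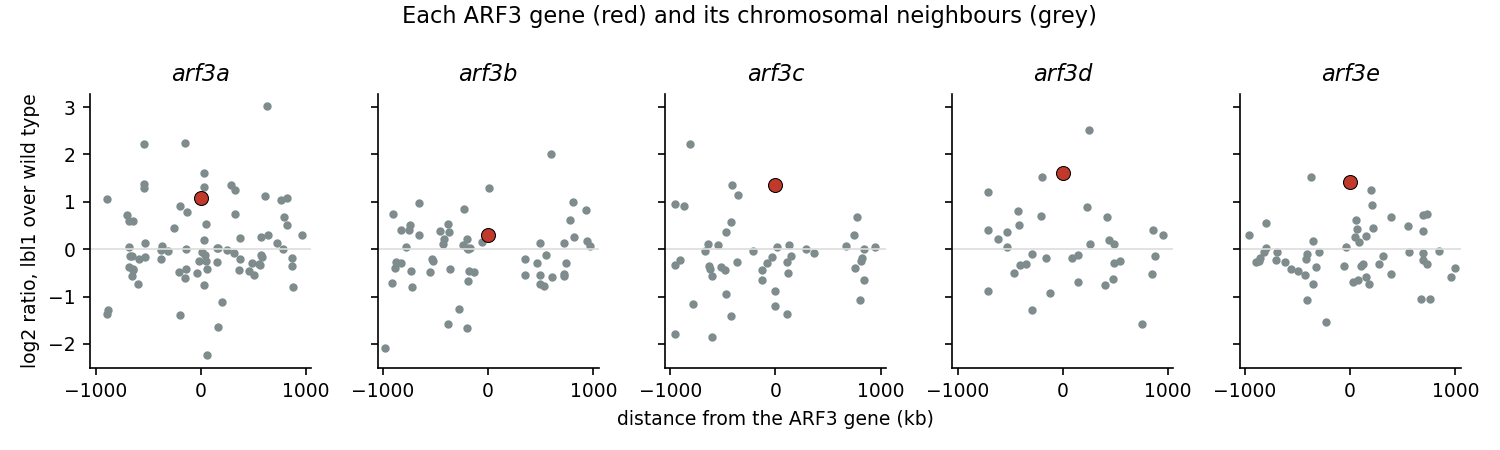
Log2 ratio of lbl1 over WT for each ARF3 gene (red) and for the genes within 1 Mb of it at 1 RPKM or more in both genotypes (grey), against distance in kb. The neighbours number 79 for arf3a, 57 for arf3b, 48 for arf3c, 35 for arf3d and 55 for arf3e, and 13 of those around arf3a are at least 2-fold higher in lbl1.

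The nearest genes on either side were listed at 0 or had ratios on both sides of 1. Next to arf3c, GRMZM2G167187 at a distance of 6531 bp had 4.16 RPKM in lbl1 and 9.51 RPKM in WT (0.437), and GRMZM2G055857 at 18676 bp had 28.7 RPKM in lbl1 and 28.0 RPKM in WT (1.03). Next to arf3e, GRMZM2G148881 at 28019 bp had 12.8 RPKM in lbl1 and 20.8 RPKM in WT (0.618). On the side of arf3d with an expressed gene, GRMZM2G142207 at 84162 bp had 3.65 RPKM in lbl1 and 4.15 RPKM in WT. Another gene with the same listed distance as GRMZM2G167187 from arf3c had a log2 ratio of -0.88. Beside arf3b, GRMZM2G140996 at 4782 bp had 16.0 RPKM in lbl1 and 6.57 RPKM in WT. That ratio of 2.44 was larger than that of arf3b itself. Both nearest neighbours of arf3a were listed at 0 in both genotypes. A second gene model, GRMZM5G852089, is listed with the same interval as arf3d, with 0.501 RPKM in lbl1 and 0.401 RPKM in WT. Some genes near the members also share a listed distance. The interval given for arf3d may thus belong to overlapping models together and not to each alone. Reads from the interval could have been divided between the 2 models, and whether the counting used the strand is not given in the sources used here, so the arf3d level is uncertain to that extent.

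Genes other than the 5 members reached nearly the same pair of levels. In the plane of the 2 log2 levels, the nearest gene to arf3a was GRMZM5G898350, with 117.9 RPKM in lbl1 and 57.4 RPKM in WT. The nearest to arf3d was Umi8 (GRMZM2G330302), with 132 RPKM in lbl1 and 46.4 RPKM in WT. The nearest to arf3c was ACO35 (GRMZM2G052422), with 37.6 RPKM in lbl1 and 15.1 RPKM in WT. The nearest to arf3e was GRMZM5G883336, with 63.6 RPKM in lbl1 and 24.4 RPKM in WT, and the nearest to arf3b was GRMZM2G046681, with 46.5 RPKM in lbl1 and 38.0 RPKM in WT. Within a distance of 0.5 on the log2 scale there were 54 genes around arf3d, 121 around arf3e, 162 around arf3a, 189 around arf3c and 1697 around arf3b. arf3a and arf3d were the only members that fell within this distance of each other. The likeness rests on 2 values per gene, 1 for each genotype.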

How the data were processed

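Per the submitters' processing notes, mRNA reads of lbl1 and WT apices (2 samples each) were handled with TopHat 1.2.0 and Cuffdiff 1.0.3. The study aligned them to B73 RefGen_v2, kept uniquely mapped reads and required at least 50 alignments for a test. Reads shared by near-identical copies are therefore missing from the values. The authors deposited 1 RPKM value per gene and genotype, which cannot be split into samples. The deposited table also holds the log2 fold, test statistic, p-values and q-values of the authors' own comparison, which were not used.

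Ratios are lbl1 over WT with no pseudocount, on genes at 1 RPKM or more in both genotypes unless stated, and 2-fold is the size limit. No test was run. Locus starts were raised by 1 to count from 1. All 5 ARF3 genes had a valid Cuffdiff test status. The status was FAIL for 954 genes, among them tas3a, ARF28 and rld2. Identifiers were matched to the later NAM-5.0 annotation for 18777 genes, of which 6439 carry a name there. The auxin response factor group holds the ARF3 genes and those named ARF with a number, in the deposited table or the later annotation. Descriptions were not searched. GRMZM2G395844, also named ARF1, was left out because that name can also stand for an ADP-ribosylation factor. GRMZM2G169820, which carries the same name, was kept. Named genes are the ARF3 genes, the TAS3 precursors, lbl1 and rgd2, the further ta-siRNA target, the 3 other ARF genes highest in WT and the 3 with the largest and the smallest ratios, listed polarity and marker genes, nearest or overlapping neighbours and the gene of most similar level. Members and lists were chosen with earlier results of these data known. Computation used Python 3.11.15, numpy 2.4.6, pandas 2.3.3 and matplotlib 3.10.9, and was checked on simulated data.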

Additional observations from a re-analysis of the deposited data

How the results depend on the processing

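No paired analysis was possible because the table pools the 2 samples of each genotype, and for the same reason no sample could be left out. Of 84 alternatives, 66 stayed close to the values given above, 18 moved and 0 reversed. All 20 alternatives for the ratios of the 5 ARF3 genes (3 scalings and a pseudocount of 1 RPKM) stayed within 1.5 times the value given. A scaling changes every ratio by the same factor, and 1 RPKM is small beside these levels, so this outcome was largely fixed in advance. With arf3d, whose locus overlaps another model, left out of the sum, the lbl1 shares were 44.6% for arf3a, 17.4% for arf3b, 14.2% for arf3c and 23.8% for arf3e, since fewer genes share the total. Leaving out each member in turn gave a family ratio between 2.02 and 2.56. With no floor, more genes are ranked, and the members stood in WT in the top 8.56% (arf3a), 13.6% (arf3b), 29.9% (arf3c), 11.2% (arf3d) and 21.3% (arf3e). The share of all genes at least 2-fold higher in lbl1 was 12.6% with 1 RPKM in either genotype, 4.03% with 5 RPKM in both, 13.5% at 1.5-fold and 3.93% within the ARF3 range of levels. For at least 2-fold lower it was 12.9%, 3.88%, 18.6% and 3.11% in the same order. At 3-fold 1 ARF3 gene remained. Relative to the median gene, 7.52% of genes were at least 2-fold higher.

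One value per genotype limits every statement to a description. The spread between samples, and with it the error of each ratio, cannot be had from the table.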
